A study of Mus musculus with 16 samples.

Results

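The integrated stress response and the amino acid enzymes coupled to it were followed in mouse ventricles through 10 genes of the 33399 in the count table. The genes were taken by name, as listed members of the ATF4 pathway, of serine synthesis and of one-carbon metabolism: Atf4, Ddit3, Trib3, Eif4ebp1, Asns, Phgdh, Psat1, Shmt2, Mthfd2 and Gnmt. They were chosen with earlier results of these data known. All 10 had enough counts to be tested, among 16400 tested genes. Bulk RNA sequencing was done on ventricles of 16 wild-type C57BL/6 mice, which had started the diets at 8 weeks of age. The groups were 4 male and 4 female mice with chronic kidney disease (CKD), and 4 male and 4 female controls. CKD was produced by 6 weeks on chow with 0.25% adenine, given in turns with plain chow, while controls ate plain chow for the same 6 weeks. Taken up in the diet, adenine yields crystals that lodge in kidney tubules. The diet, called the high-dose regimen, was meant to hold median blood urea nitrogen, a measure of kidney filtration, at 40 to 70 mg/dL. CKD mice differ from controls in this diet as well as in kidney function, and these cannot be told apart.

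The integrated stress response joins several stress kinases, for amino acid shortage, unfolded protein in the endoplasmic reticulum, haem shortage and double-stranded RNA, in one step, the phosphorylation of the translation factor eIF2. Most protein synthesis then slows, while the mRNA of the transcription factor ATF4 is translated more. ATF4 is therefore set largely at translation, and it switches on genes of amino acid uptake and synthesis, among them the serine pathway that feeds glycine and folate-bound one-carbon units. In heart muscle this programme is best known from mitochondrial disease, where serine and one-carbon enzymes are prominent targets.

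Levels are given as CPM, the reads of a gene relative to all reads of its library, and levels of different genes are compared only per kilobase of exon (RPKM). In controls the mean RPKM was 35.6 for Atf4, 29.7 for Eif4ebp1, 11.6 for Shmt2 and 11.2 for Ddit3. It was 2.72 for Gnmt, 1.37 for Trib3, 1.09 for Psat1, 1.07 for Asns, 0.931 for Phgdh and 0.851 for Mthfd2. Atf4 and Eif4ebp1 thus lay at the 91.6 and 90.0 percentiles of the 13080 tested protein-coding genes, and Phgdh and Mthfd2 at the 17.7 and 16.4 percentiles. In these controls the neighbours Atf4 and Eif4ebp1 differed by less than the sum of their SDs (4.58 and 3.51 RPKM, n = 8), and so did Shmt2 and Ddit3. From Trib3 to Mthfd2 the spread of each gene (SD 0.192 to 0.362 RPKM) was larger than the step to the next. The steps from Eif4ebp1 to Shmt2, from Ddit3 to Gnmt and from Gnmt to Trib3 were larger than the sums of their SDs. The low genes rest on few reads: Trib3 had 11 to 52 counts in a library, Phgdh 16 to 38 and Asns 18 to 47, against 761 to 1228 for Atf4.

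The libraries held 10203707 to 13626039 counts each. Summed CPM of 8 ventricular cardiomyocyte markers, all detected, was 32258.6 to 46969.7 in male CKD, 28192.9 to 39360.7 in male control, 32031.1 to 40090.1 in female CKD and 30685.0 to 35549.4 in female control libraries. Male CKD mouse 4 stood apart from the other libraries. It had the highest of these cardiomyocyte sums and the lowest summed CPM of 8 fibroblast (220), 7 endothelial (701) and 7 macrophage (81.9) markers, all of them detected. The other groups had fibroblast sums of 870 to 1195 (male control), 679 to 1190.3 (female CKD) and 897 to 1196 CPM (female control). Female control mouse 2 was set aside with it in one alternative. Fewer cells of a type and less RNA per cell cannot be told apart in bulk tissue. Nothing in the labels says how the mice were housed or grouped, so p-values measure the spread between these samples.

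Start site windows of the genes were searched for the element through which ATF4 acts on its targets, the C/EBP-ATF response element, written as TGATGNAA on either strand (TTNCATCA on the other). RefSeq windows on GRCm38.p6 from 250 bases before to 50 bases after the start site were at hand for 9 of the 10 genes, all but Eif4ebp1. A match lay in 2 of the 9, Asns and Trib3, and in 1304 of 32851 windows (3.97%) of the same length. Asns has it on the gene's strand 23 to 16 bases before the RefSeq start site, and Trib3 on the opposite strand 15 to 22 bases after it. The GENCODE coordinates given below for these minus-strand genes begin elsewhere, at 7693254 for Asns and 152344032 for Trib3. Against those, the Asns match lies inside the gene and the Trib3 match upstream of it. Gnmt, which of the 10 genes had the lowest p between CKD and control, is shown beside them without a match. The sequences below run 5′ to 3′ on the gene's strand, and capitals mark the match.
Asns, chr6:7693210-7693309, minus strand, the 100 bases before the start site: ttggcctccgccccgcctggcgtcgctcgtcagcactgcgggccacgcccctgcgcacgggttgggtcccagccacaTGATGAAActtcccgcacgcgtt
Trib3, chr2:152344028-152344057, minus strand, 30 bases around the match: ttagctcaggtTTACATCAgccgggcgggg
Gnmt, chr17:46729166-46729265, minus strand, the 100 bases before the start site: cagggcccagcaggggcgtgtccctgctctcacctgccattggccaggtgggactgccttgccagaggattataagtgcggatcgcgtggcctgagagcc
A match of 8 letters is a description of the sequence, and its absence from a window says only that these letters are not there.

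Across the 10 genes, CKD and control ventricles differed most in Gnmt and Eif4ebp1, and neither passed the threshold of adjusted p 0.05. In edgeR's quasi-likelihood test with sex as a covariate, 0 of the 10 genes passed it, while 0.0854% of all tested genes did. At an unadjusted p under 0.05, 2 of the 10 genes were higher and 0 lower. Of all 16400 tested genes 1332 were higher and 1187 lower at it, 15.4% in either direction. DESeq2 called 2 of the 10, with 2.43% of all genes called, and limma-voom with sample quality weights called 2, with 1.21% of all genes called. In both tools the pair was Gnmt and Eif4ebp1. As the 10 genes were chosen with earlier results of these data known, their counts beside these shares are a description. The fold changes of the 10 genes were positive for 5 and negative for 5, with a median log2 fold change of -0.01 against 0.00 over all tested genes.

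**Figure D1:**
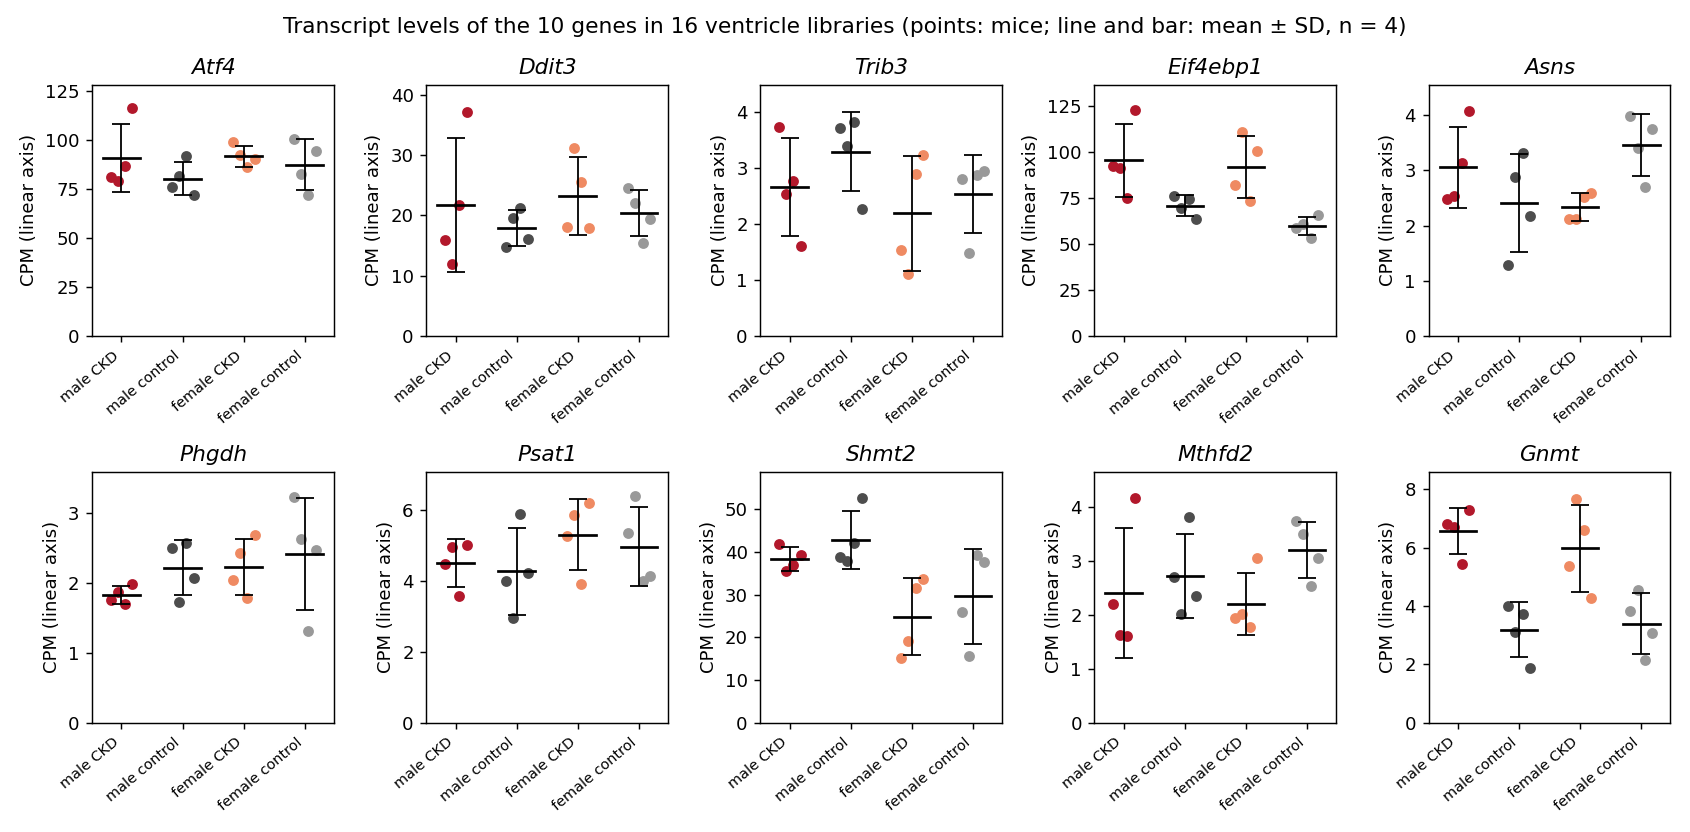
CPM on linear axes of each of the 10 genes in 16 ventricle libraries, by group, with points for mice and lines and bars for the mean ± SD (n = 4). Gnmt and Eif4ebp1 lie higher in most CKD mice than in controls of their sex, and over both sexes CKD and control overlap in all 10 genes.

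Gnmt (ENSMUSG00000002769.8, chr17:46725664-46729168, minus strand, protein coding) encodes glycine N-methyltransferase, which uses S-adenosylmethionine to methylate glycine and is abundant in liver. Male CKD mice had 6.82, 6.69, 5.45 and 7.30 CPM, against 3.99, 3.10, 3.74 and 1.89 CPM in male controls. In females the CKD mice had 5.35, 7.67, 6.60 and 4.25 CPM, against 3.82, 4.55, 2.13 and 3.05 CPM in female controls. All 8 CKD mice lay above the mean of the controls of their sex, 7 lay above every control, and in males the groups did not overlap. The means were 6.27 ± 1.15 CPM in CKD and 3.29 ± 0.925 CPM in control mice (SD, n = 8 each). This gave a log2 fold change of 0.93 (SE 0.18, 95% interval 0.55 to 1.30), a fold of 1.90 (1.46 to 2.46), with adjusted p = 0.0735 in edgeR's test. By its p Gnmt was number 15 from the lowest of 16400 genes, and Eif4ebp1 number 20. DESeq2 gave an adjusted p of 0.000487 and limma-voom 0.0279, and over 28 alternatives the adjusted p ran from 0.000487 to 0.184, under 0.05 in 8. The depth of Gnmt was 20 to 93 counts in a library.

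As Gnmt is best known from liver, hepatocyte markers were read beside it. The summed CPM of 6 hepatocyte markers was 2.84 to 10.0 in male CKD and 3.30 to 7.36 in male control libraries. It was 6.15 to 10.2 in female CKD and 3.85 to 10.7 in female control libraries. Of the 6, 2 passed the filter on low counts. The highest counts of the list were those of Cyp2e1, with 14 to 108 in a library (1.33 to 8.81 CPM). Albumin (Alb) had 0 to 7 counts, Apoa1 0 to 2, Serpina1a 0 to 4, Apoa2 2 to 9 and Ttr 0 to 12. Kidney tubule markers (4 in the table) summed to 1.54 to 2.61 CPM in male CKD and 1.64 to 3.82 CPM in male control libraries, and to 1.76 to 3.13 CPM in female CKD and 1.58 to 1.97 CPM in female control libraries. Of these Lrp2 had 14 to 45 counts, Aqp2 0 to 3, and Slc34a1 and Slc12a1 0 to 1. The part of other tissue in the Gnmt values was not tested.

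Eif4ebp1 (ENSMUSG00000031490.6, chr8:27260329-27276674, plus strand, protein coding) encodes 4E-BP1, a repressor that holds the cap-binding factor eIF4E until mTORC1 phosphorylates it, and is known as an ATF4 target. Male CKD mice had 92.5, 91.3, 75.1 and 123 CPM, against 75.9, 69.2, 74.1 and 63.4 CPM in male controls. Female CKD mice had 82.1, 111, 73.5 and 100.2 CPM, against 58.8, 60.8, 53.3 and 65.4 CPM in female controls. Here the female groups did not overlap, all 8 CKD mice lay above the control mean of their sex and 6 lay above every control. The means were 93.5 ± 17.2 CPM in CKD and 65.1 ± 7.71 CPM in control mice (SD, n = 8 each). CKD over control, the log2 fold change was 0.53 (SE 0.11, 95% interval 0.30 to 0.75), a fold of 1.44 (1.23 to 1.68), with adjusted p = 0.0813 in edgeR's test. The adjusted p was 0.00199 in DESeq2 and 0.0439 in limma-voom, and 7 of 28 alternatives were under 0.05, in a range of 0.00199 to 0.219. Of the 25-base words of its transcripts 10.9% also occur in other genes.

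The title code number, a digit in the sample titles whose meaning the labels do not explain, is 6 in 10 libraries, 5 of them CKD. With this code as a factor the adjusted p was 0.0416 for Gnmt and 0.0416 for Eif4ebp1. In the 10 libraries with code 6 alone, the log2 fold change was 0.85 for Gnmt (SE 0.21, adjusted p = 0.142 in edgeR's test) and 0.45 for Eif4ebp1 (SE 0.13, adjusted p = 0.219). Without male CKD mouse 4 the values were 0.89 for Gnmt (SE 0.19) and 0.47 for Eif4ebp1 (SE 0.10), each with adjusted p = 0.0951.

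**Figure D2:**
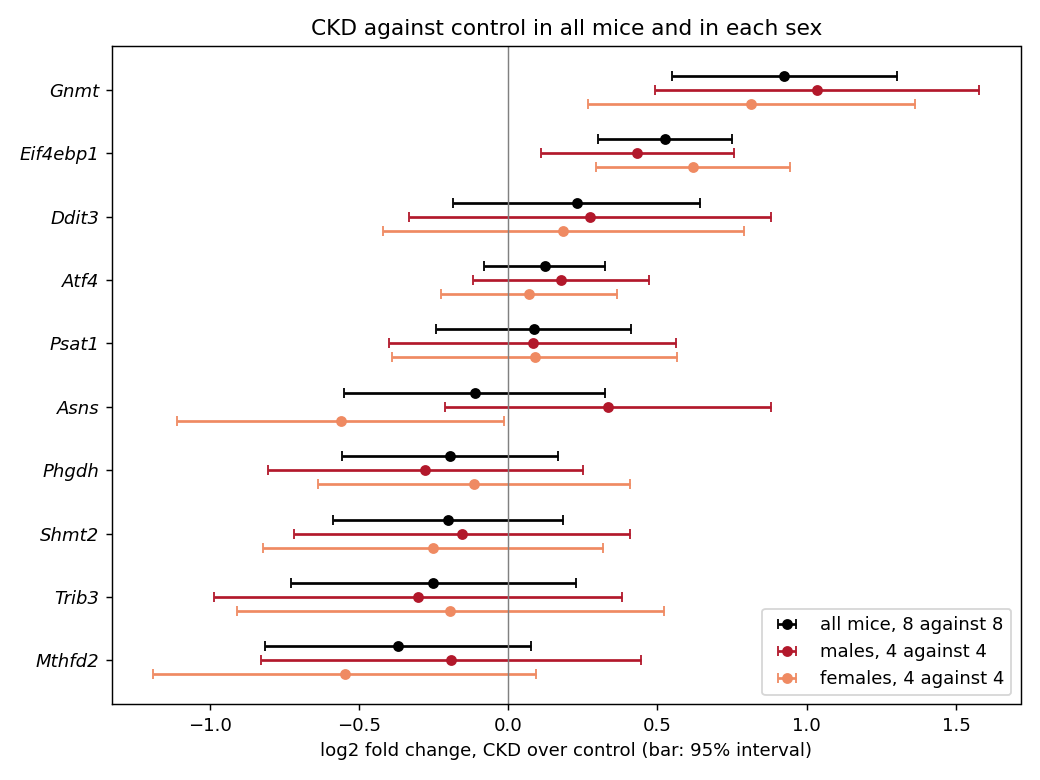
Log2 fold changes of CKD over control with 95% intervals for the 10 genes, in all mice (8 against 8) and in males and females (4 against 4 each). The intervals of Gnmt and Eif4ebp1 lie above 0 in all 3 comparisons, and Asns has a positive estimate in males and a negative one in females.

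The transcription factors at the head of the pathway differed by less. Atf4 (ENSMUSG00000042406.8, chr15:80255184-80257541, plus strand), the factor itself, averaged 91.3 ± 11.9 CPM in CKD and 83.9 ± 10.8 CPM in control mice (SD, n = 8 each). Its log2 fold change was 0.12 (SE 0.10, 95% interval -0.08 to 0.33; adjusted p = 0.552 in edgeR's test), so a fold above 1.25 or below 0.946 lay outside the interval. It was 0.05 without male CKD mouse 4 and 0.07 without female control mouse 3. Male CKD mice had 80.9, 79.2, 86.7 and 116 CPM, against 76.2, 81.4, 91.7 and 71.7 CPM in male controls. Female CKD mice had 98.9, 92.1, 86.0 and 90.2 CPM, against 101, 82.7, 71.9 and 94.6 CPM in female controls. The groups overlapped in both sexes, and 116 CPM, in male CKD mouse 4, was the highest value.

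Ddit3 (ENSMUSG00000025408.15, chr10:127290774-127296288, plus strand) encodes CHOP, a transcription factor induced by ATF4 under lasting stress. Male CKD mice had 15.9, 12, 21.8 and 37.2 CPM, against 14.8, 19.6, 21.2 and 16.1 CPM in male controls. The female CKD mice had 18.1, 31.2, 25.6 and 17.8 CPM, against 24.6, 22.1, 15.5 and 19.4 CPM in female controls. Of the CKD mice 3 lay above every control and 1 below every control. Over all mice the log2 fold change was 0.23 (SE 0.20, adjusted p = 0.591 in edgeR's test) and became 0.05 (SE 0.16) without male CKD mouse 4, whose 37.2 CPM was the highest value. Exons of Mars and Gm4189 overlap 4.73% of the Ddit3 exon bases on the other strand, and a second gene of the same name overlaps 6.13% on the same strand. Whether reads were counted by strand was not stated, so reads from these stretches cannot be assigned with certainty.

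Trib3 (ENSMUSG00000032715.9, chr2:152337422-152344032, minus strand), a pseudokinase made in response to ATF4 and CHOP, averaged 2.43 ± 0.920 CPM in CKD and 2.91 ± 0.770 CPM in control mice (SD, n = 8 each). Its log2 fold change was -0.25 (SE 0.23, 95% interval -0.73 to 0.23; adjusted p = 0.611 in edgeR's test). Without male CKD mouse 4 it was -0.16, and without female CKD mouse 2 -0.17. The CKD range was 1.11 to 3.74 CPM and the control range 1.49 to 3.82 CPM. In contrast to Atf4 and Ddit3, male CKD mouse 4 had the lowest Trib3 of the male CKD mice, 1.61 CPM.

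Asns (ENSMUSG00000029752.12, chr6:7675169-7693254, minus strand) encodes asparagine synthetase, a much used readout of ATF4. Its estimates had opposite signs in the sexes. Female CKD mice had 2.12, 2.12, 2.52 and 2.59 CPM, against 3.99, 3.42, 2.70 and 3.74 CPM in female controls, with no overlap. Male CKD mice had 2.49, 2.53, 3.13 and 4.07 CPM, against 1.28, 2.88, 3.32 and 2.17 CPM in male controls, which overlapped. In females the log2 fold change was -0.56 (SE 0.26, 95% interval -1.11 to -0.01, adjusted p = 0.587 in edgeR's test), and in males 0.33 (SE 0.26, 95% interval -0.21 to 0.88). The female value ran from -0.69 to -0.48 over 28 alternatives, with an unadjusted p under 0.05 in 17 of them. Over 28 alternatives the male value ran from 0.10, without male control mouse 1, to 0.53, without male control mouse 3. In both sexes together it was -0.11 (SE 0.21, adjusted p = 0.812), and with single libraries left out it ran from -0.27 (without male control mouse 1) to -0.04 (without female control mouse 1).

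Serine is made from a glycolytic intermediate by Phgdh, the first enzyme, and Psat1, the second. Phgdh (ENSMUSG00000053398.11, chr3:98313170-98339990, minus strand) averaged 2.03 ± 0.349 CPM in CKD and 2.31 ± 0.593 CPM in control mice, a log2 difference of -0.19 (SE 0.17, adjusted p = 0.601 in edgeR's test; SD, n = 8 each). It was -0.32 without female control mouse 3 and -0.12 without female control mouse 1. Its counts are uncertain, as 58.3% of the 25-base words of its transcripts also occur in other genes. The processed pseudogene Gm7901 alone holds 47.5% of them. Psat1 (ENSMUSG00000024640.9, chr19:15904678-15947337, minus strand) averaged 4.91 ± 0.897 CPM in CKD and 4.62 ± 1.15 CPM in control mice, with a log2 fold change of 0.09 (SE 0.16, 95% interval -0.24 to 0.41; adjusted p = 0.809 in edgeR's test). Its range was 3.57 to 6.20 CPM in CKD and 2.96 to 6.39 CPM in control mice, so the groups overlapped.

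In mitochondria SHMT2 splits serine into glycine and a one-carbon unit, and MTHFD2 oxidises that unit. Mthfd2 (ENSMUSG00000005667.8, chr6:83305691-83325908, minus strand) had 2.20, 1.63, 1.61 and 4.17 CPM in male CKD mice, against 2.71, 2.02, 3.82 and 2.36 CPM in male controls. Female CKD mice had 1.95, 2.02, 1.78 and 3.05 CPM, against 3.74, 3.50, 2.54 and 3.05 CPM in female controls. Of the 8 CKD mice 5 lay below every control, and 1, male CKD mouse 4, above every control. For Mthfd2 the log2 fold change was -0.37 (SE 0.21, 95% interval -0.81 to 0.08, adjusted p = 0.416 in edgeR's test). Without male CKD mouse 4 it was -0.56 (SE 0.17, 95% interval -0.92 to -0.21, adjusted p = 0.152). Over 28 alternatives the adjusted p of Mthfd2 ran from 0.0729 to 0.586.

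Shmt2 (ENSMUSG00000025403.5, chr10:127517123-127522444, minus strand) averaged 31.6 ± 9.55 CPM in CKD and 36.2 ± 11.1 CPM in control mice (SD, n = 8 each). For Shmt2 the log2 fold change was -0.20 (SE 0.18, 95% interval -0.59 to 0.18; adjusted p = 0.611 in edgeR's test), and -0.12 without female CKD mouse 1. Male CKD mice had 41.9, 35.6, 36.9 and 39.2 CPM, against 38.7, 37.8, 42.0 and 52.6 CPM in male controls. Those with CKD among the females had 15.2, 19.1, 31.6 and 33.6 CPM, against 25.9, 15.5, 39.4 and 37.6 CPM in female controls. The female CKD values lay in a low range (15.2 and 19.1 CPM) and a high range (31.6 and 33.6 CPM). Female controls spread from 15.5 to 39.4 CPM, with 25.9 CPM in between.

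Library composition moved with Shmt2. For each library, log2 deviations of all genes from their means were set against transcript GC content across genes. This Spearman value was 0.0314 to 0.41 in male CKD, 0.00685 to 0.56 in male control, -0.502 to 0.00481 in female CKD and -0.474 to 0.148 in female control libraries. After group means were removed from both, Shmt2 followed this value over the 16 libraries (Pearson r = 0.731, permutation p = 0.0011, adjusted 0.011; Spearman rho = 0.706, permutation p = 0.003, adjusted 0.03; adjusted over 10 genes). Without the 2 libraries farthest from the median, r was 0.732. Shmt2 was the only 1 of the 10 genes past adjusted p 0.05 in this check, and Gnmt had r = -0.499 (permutation p = 0.051, adjusted 0.25). The share of all tested genes that would pass was not computed, and the GC value is itself drawn from the deviations of all genes. These permutations too made no allowance for the removed group means, so their p-values tend to be too small. Female CKD mouse 3, with the lowest GC value, had 31.6 CPM of Shmt2. Transcripts are 57.9% G or C for Shmt2, 59.2% for Trib3 (r = 0.411, adjusted 0.38) and 56.9% for Gnmt. With GC and length trends removed from each library, the log2 fold change of CKD over control was -0.03 for Shmt2 (SE 0.09), 0.96 for Gnmt (SE 0.21, adjusted p = 0.0609 in edgeR's test) and 0.49 for Eif4ebp1 (SE 0.09, adjusted p = 0.0376).

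**Figure D3:**
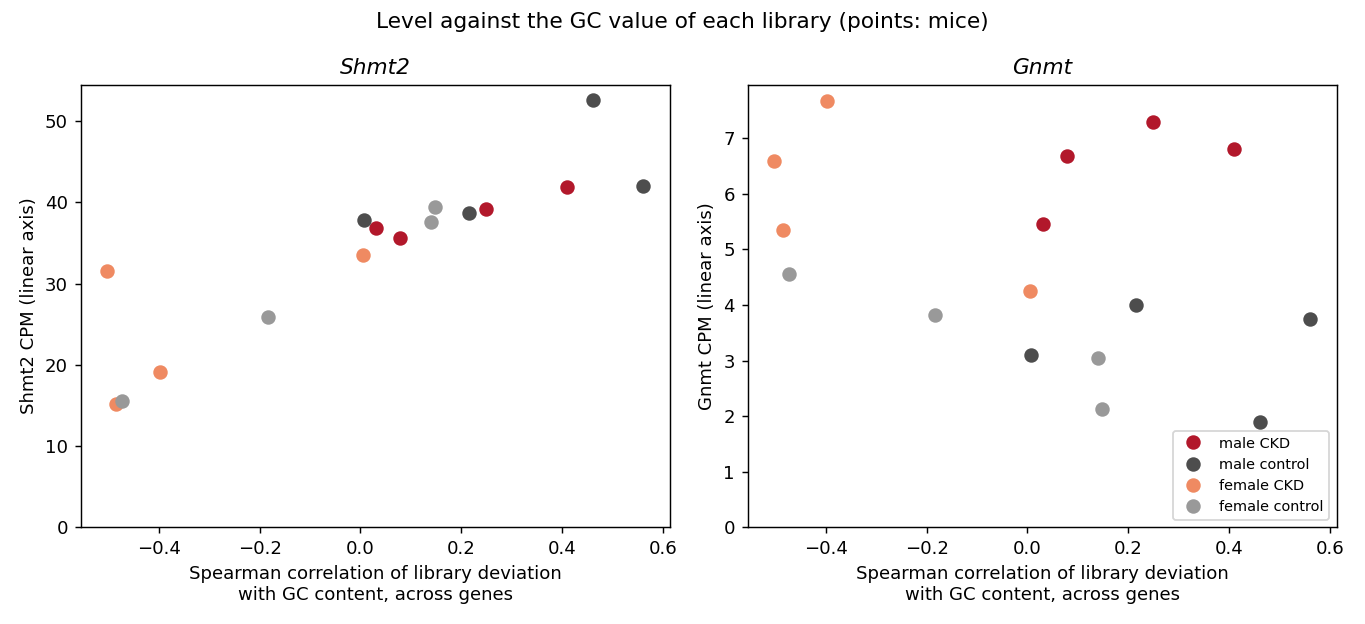
CPM of Shmt2 and of Gnmt on linear axes against the GC value of each library, the Spearman correlation across genes of the library's deviation with GC content, with points for mice coloured by group. The 3 Shmt2 values under 20 CPM belong to female libraries with GC values from -0.485 to -0.398, while female CKD mouse 3, at the lowest GC value (-0.502), has 31.6 CPM, and 7 of the 8 CKD values of Gnmt lie above every control.

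Within each sex the same 2 genes led. In males edgeR's test called 0 of the 10 genes, with 0% of all genes called. At an unadjusted p under 0.05, 2 of the 10 were higher and 0 lower in males. Of all genes 645 were higher and 484 lower at it, 6.88% in either direction. Male log2 fold changes were 1.03 for Gnmt (SE 0.26, adjusted p = 0.572) and 0.43 for Eif4ebp1 (SE 0.15, adjusted p = 0.628). In 3 of 28 alternatives the male Eif4ebp1 interval reached 0: 0.27 with limma-voom, 0.22 with title code 6 alone and 0.28 without male CKD mouse 4 and female control mouse 2. In females 0 of the 10 genes were called, with 0.0549% of all genes called. At an unadjusted p under 0.05, 2 were higher and 1 lower in females. Of all genes 682 were higher and 685 lower at it, 8.34% in either direction. The female log2 fold change was 0.62 for Eif4ebp1 (SE 0.15, adjusted p = 0.314) and 0.81 for Gnmt (SE 0.26, adjusted p = 0.460), and Asns was the lower gene. DESeq2 and limma-voom also called 0 of the 10 in either sex. Of all 16400 genes, DESeq2 called 6 higher and 6 lower in males, and 16 higher and 16 lower in females. Limma-voom called 0 of them in males, and 27 higher and 28 lower in females.

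Complete separation of CKD and control mice was seen for 3 of the 10 genes, each in 1 sex. Every male CKD mouse lay above every male control for Gnmt, as for 1.63% of all genes, and below for 0 of the 10, where the share of all genes was 1.56%. Every female CKD mouse lay above every female control for Eif4ebp1, as for 5.08% of all genes, and below for Asns, as for 2.49% of all genes.

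The difference of the CKD effect between females and males was tested as an interaction. In edgeR's test 0 of the 10 genes passed, with 0% of all genes called. DESeq2 and limma-voom also called 0 of the 10 and 0 of all genes. At an unadjusted p under 0.05 there was 1 gene, Asns, and 1.68% of all genes passed. The CKD effect on Asns in females minus that in males was -0.90 log2 units (SE 0.37, 95% interval -1.67 to -0.12, adjusted p = 1.0 in edgeR's test). Over 27 alternatives it ran from -1.12 to -0.69. For Gnmt the difference was -0.22 (SE 0.36, 95% interval -0.99 to 0.55) and for Eif4ebp1 0.19 (SE 0.22, 95% interval -0.27 to 0.64), intervals that leave room for sizeable differences in either direction.

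Between the sexes the lowest p of the 10 genes was that of Shmt2 in CKD mice and that of Asns in control mice. In CKD mice the Shmt2 log2 fold change of females over males was -0.63 (SE 0.27, 95% interval -1.20 to -0.06, adjusted p = 0.302 in edgeR's test), with means of 24.9 ± 9.08 CPM in females and 38.4 ± 2.76 CPM in males (SD, n = 4 each). In control mice the Shmt2 value was -0.53 (SE 0.27, 95% interval -1.10 to 0.04), with 29.6 ± 11.2 CPM in females and 42.8 ± 6.79 CPM in males, and -0.32 without female control mouse 2. Asns in control mice had 0.52 (SE 0.26, 95% interval -0.02 to 1.06, adjusted p = 0.639 in edgeR's test), with 3.46 ± 0.559 CPM in females and 2.42 ± 0.892 CPM in males, and 0.31 without male control mouse 1. Limma-voom gave 0.83 for it (SE 0.25, adjusted p = 0.261). With GC and length trends removed these Shmt2 values were -0.18 (SE 0.13) in CKD and -0.15 (SE 0.13) in control mice. Among CKD mice, edgeR called 0 of the 10 genes between the sexes, with 0.0427% of all genes called. DESeq2 called 0 of the 10, with 12 higher and 47 lower in females of all 16400 genes. Limma-voom called 1, Shmt2, with 9.48% of all genes called. At an unadjusted p under 0.05 the sexes differed in 1 of the 10, again Shmt2, lower in females. Of all genes 775 were higher and 1683 lower in females at it, 15% in either direction. Among controls, edgeR, DESeq2 and limma-voom called 0 of the 10, with 0.0366% of all genes called by edgeR. Of all 16400 genes, DESeq2 called 5 higher and 7 lower in female controls, and limma-voom 4 higher and 4 lower. At an unadjusted p under 0.05 it was 0 of the 10, with 6.84% of all genes past it.

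Over the 16 libraries, deviations of Atf4 from the group means went with those of several of its partners, more weakly without 2 libraries. Of 45 pairs among the 10 genes, 6 passed adjusted p 0.05 by Pearson r of such deviations, and 8 by Spearman rho. These were permutation tests over the 16 libraries, adjusted over 45 pairs. The permutations made no allowance for the 4 group means removed, so their p-values tend to be too small. Whether the pairs would pass with that allowance was not tested. The share of all pairs of tested genes that would pass was not computed. Atf4 went with Ddit3 (Pearson r = 0.711, permutation p = 0.002, adjusted 0.028; Spearman rho = 0.674, adjusted 0.03), with Mthfd2 (r = 0.701, adjusted 0.028; rho = 0.568, adjusted 0.086) and with Asns (r = 0.668, adjusted 0.036; rho = 0.735). Without the 2 libraries farthest from the median in Atf4, r was 0.483 for Ddit3, 0.467 for Mthfd2 and 0.582 for Asns, all weaker than with every library, and no test was run on the remaining libraries. The other pairs were Eif4ebp1 with Mthfd2 (r = 0.707, adjusted 0.028; rho = 0.771; 0.676 without 2 libraries), Phgdh with Psat1 (r = 0.688, adjusted 0.028; rho = 0.771; 0.806 without 2) and Psat1 with Mthfd2 (r = 0.665, adjusted 0.036; rho = 0.703; 0.558 without 2). By rho alone 3 more pairs passed: Phgdh with Mthfd2 (rho = 0.791, adjusted 0.013; r = 0.597, adjusted 0.073), Eif4ebp1 with Phgdh (rho = 0.718, adjusted 0.021; r = 0.533, adjusted 0.12) and Trib3 with Shmt2 (rho = 0.694, adjusted 0.023; r = 0.621, adjusted 0.062). Male CKD mouse 4 had the highest value of all 16 libraries for Atf4, Ddit3, Asns, Mthfd2 and Eif4ebp1. The same library had the lowest fibroblast, endothelial and macrophage sums, and their part in the correlations was not tested. Gnmt, which of the 10 genes had the lowest p between CKD and control, was in none of these pairs.

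**Figure D4:**
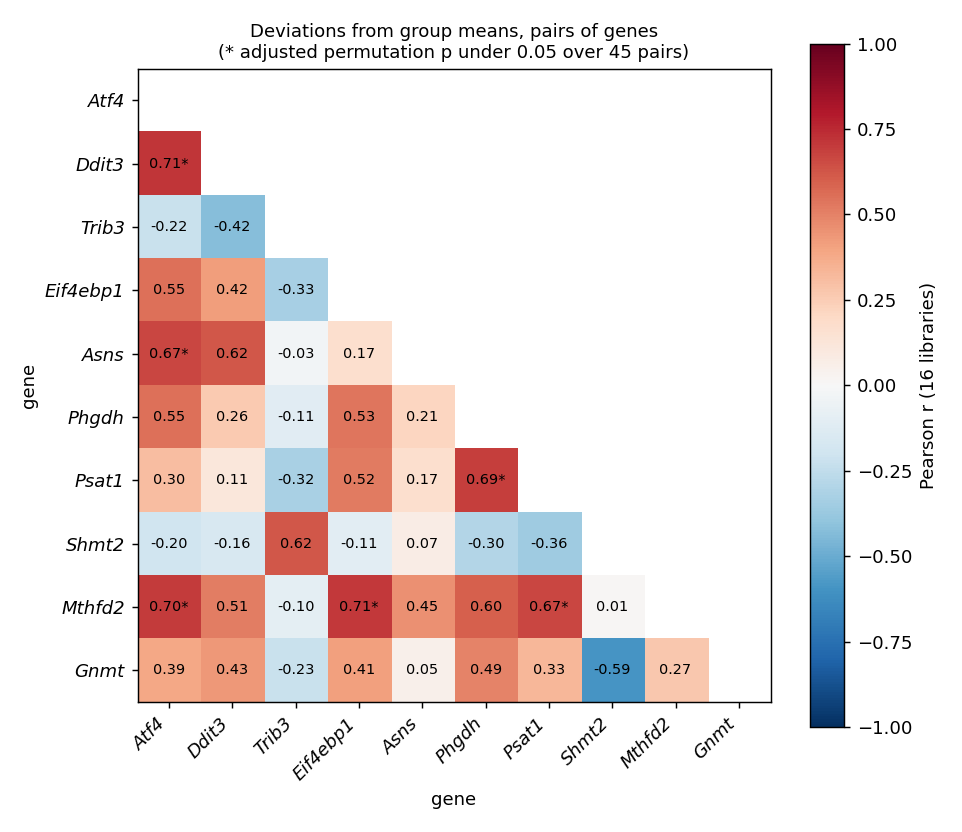
Pearson r of log2 CPM deviations from the group means over 16 libraries for each of the 45 pairs of the 10 genes, with an asterisk for an adjusted permutation p under 0.05. Of the 6 marked pairs, 3 include Atf4 and 3 include Mthfd2, and 1 pair, Atf4 with Mthfd2, is counted in both. The permutations made no allowance for the removed group means, so their p-values tend to be too small.

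The protein-coding genes most like each gene were read from the same deviations over the 16 libraries, as a description. For Atf4 they were Alyref (r = 0.959, rho = 0.944), U2af1 (r = 0.917, rho = 0.891) and Ppie (r = 0.907, rho = 0.797). For Ddit3 they were Nop56 (r = 0.888), Gcat (r = 0.875) and Bckdhb (r = 0.873), and for Trib3 Cotl1 (r = 0.933), Fgfr3 (r = 0.912) and the glycine transporter gene Slc6a9 (r = 0.885). For Eif4ebp1 they were Otulin (r = 0.943), Rtcb (r = 0.911) and Dcxr (r = 0.896), and for Asns Ftl1 (r = 0.848), Donson (r = 0.821) and Kctd6 (r = 0.794). For Phgdh they were Pja1 (r = 0.862), Nagk (r = 0.845) and Retreg3 (r = 0.827), and for Psat1 Cd82 (r = 0.866), Stk25 (r = 0.864) and Gjc1 (r = 0.851). For Shmt2 they were Cog1 (r = 0.986), Prkcsh (r = 0.985) and Coq8b (r = 0.979), and for Mthfd2 Rbfa (r = 0.959), Emc9 (r = 0.956) and Tsr3 (r = 0.955). The highest r of Gnmt was the lowest of the 10 genes, with Tmem50a (r = 0.840), Slc26a3 (r = 0.819) and Sdf4 (r = 0.816). Libraries that stand apart enter all of these values.

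The wider pathway was read from 10 lists with 160 distinct tested genes, also chosen with earlier results of these data known. None of the 160 passed adjusted p 0.05 in edgeR's test, and at an unadjusted p under 0.05, 15 were higher and 4 lower in CKD. Of all tested genes 1332 were higher and 1187 lower at it, 15.4% in either direction. DESeq2 called 5 of the 160 (Eif2b3, Kars, Lars, Glul and Aldh18a1) and limma-voom 1, Aldh18a1 (adjusted p = 0.0425), beside 2.43% and 1.21% of all genes. List medians are log2 fold changes, and the median over all tested genes was 0.00. The first list held kinases, eIF2 and eIF2B subunits and phosphatases of the integrated stress response, with Oma1, Dele1 and Impact. Of its 18 genes 12 were positive, 2 were higher at an unadjusted p under 0.05 and 0 lower, with a median of 0.08. Eif2b3, a subunit of the exchange factor eIF2B that phosphorylated eIF2 blocks, had 21.7 ± 3.33 CPM in CKD and 17.3 ± 1.34 CPM in control mice (SD, n = 8 each). Its log2 fold change was 0.33 (SE 0.10, adjusted p = 0.134 in edgeR's test and 0.0457 in DESeq2). Eif2s2, the beta subunit of eIF2, had 0.18 (SE 0.07). Eif2b5 had 0.25 (SE 0.14) and Eif2ak3, the kinase PERK, -0.20 (SE 0.11), both with p above 0.05.

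Of 18 tested further ATF4 targets and partners, 9 were positive, 9 negative and 0 had p under 0.05, with a median of -0.02. Cth, which makes cysteine from cystathionine, had a log2 fold change of 0.42 (SE 0.22), the transcription factor Atf5 -0.46 (SE 0.26), Herpud1 0.26 (SE 0.15) and Stc2 0.17 (SE 0.11). Amino acid transporters (17 tested) had a median of 0.03, 2 higher and 0 lower at an unadjusted p under 0.05. Slc3a2, the heavy chain shared by several exchangers, had 42.6 ± 12.9 CPM in CKD and 31.9 ± 2.64 CPM in control mice, or 0.40 on the log2 scale (SE 0.12, adjusted p = 0.141 in edgeR's test). Slc38a1 had 0.24 (SE 0.11), Slc1a4 -0.32 (SE 0.18) and Slc38a2 0.18 (SE 0.10).

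Cytosolic aminoacyl-tRNA synthetases (20 tested), which load tRNAs, had a median of 0.07, 4 higher and 0 lower at an unadjusted p under 0.05. Kars, for lysine, had 158.9 ± 20.3 CPM in CKD and 127 ± 12.2 CPM in control mice, or 0.32 on the log2 scale (SE 0.09, adjusted p = 0.123 in edgeR's test and 0.0365 in DESeq2). Lars, for leucine, had 0.23 (SE 0.07, adjusted p = 0.136 in edgeR's test and 0.0315 in DESeq2), Nars 0.20 (SE 0.07) and Eprs 0.22 (SE 0.09). The other serine, glycine and folate enzymes (20 tested) had a median of 0.02, 1 higher and 1 lower. Gart, of purine synthesis, had 0.19 (SE 0.08), Dld 0.16 (SE 0.08) and Mthfd1, the cytosolic counterpart of Mthfd2, 0.18 (SE 0.10).

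In the methionine cycle and methyl transfer (15 tested), the pathway of Gnmt, the median was 0.07, 2 higher and 2 lower at an unadjusted p under 0.05. Mat2b, a regulatory subunit of S-adenosylmethionine synthesis, had 0.27 (SE 0.09) and Amd1, which decarboxylates S-adenosylmethionine, 0.40 (SE 0.15). The lower genes were other methyltransferases, Gamt, of creatine synthesis, with -0.51 (SE 0.20) and Nnmt, which methylates nicotinamide, with -0.44 (SE 0.20). The proline, aspartate, alanine and glutamate enzymes (13 tested) had a median of -0.01, 2 higher and 1 lower. Glul, glutamine synthetase, had 499 ± 76.0 CPM in CKD and 337 ± 72.8 CPM in control mice, or 0.56 on the log2 scale (SE 0.13, adjusted p = 0.0946 in edgeR's test and 0.0134 in DESeq2). Aldh18a1, which starts proline synthesis, had 6.44 ± 0.780 CPM in CKD and 9.02 ± 1.29 CPM in control mice, or -0.48 on the log2 scale (SE 0.12, adjusted p = 0.0946 in edgeR's test and 0.0143 in DESeq2). Prodh, which breaks proline down, had 0.41 (SE 0.12) and Pycr1, the last step of proline synthesis, -0.51 (SE 0.25).

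Around Eif4ebp1, the eIF4E-binding proteins, cap complex and mTORC1 genes (18 tested) had a median of -0.08, 2 higher and 0 lower at an unadjusted p under 0.05. Sesn1 had 0.27 (SE 0.11), Rheb, the GTPase that activates mTORC1, 0.15 (SE 0.07), Eif4a1 0.15 (SE 0.07) and Mlst8 -0.22 (SE 0.12). In the unfolded protein responses of the endoplasmic reticulum (17 tested, median 0.03) and of mitochondria (11 tested, median 0.04), 0 genes had p under 0.05. Hyou1 had -0.36 (SE 0.24), Pdia4 -0.31 (SE 0.20) and Edem1 -0.21 (SE 0.14). Of the mitochondrial list Lonp1 had -0.25 (SE 0.14), Hspd1 -0.12 (SE 0.07), Clpp 0.18 (SE 0.14) and Trap1 0.13 (SE 0.10).

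**Figure D5:**
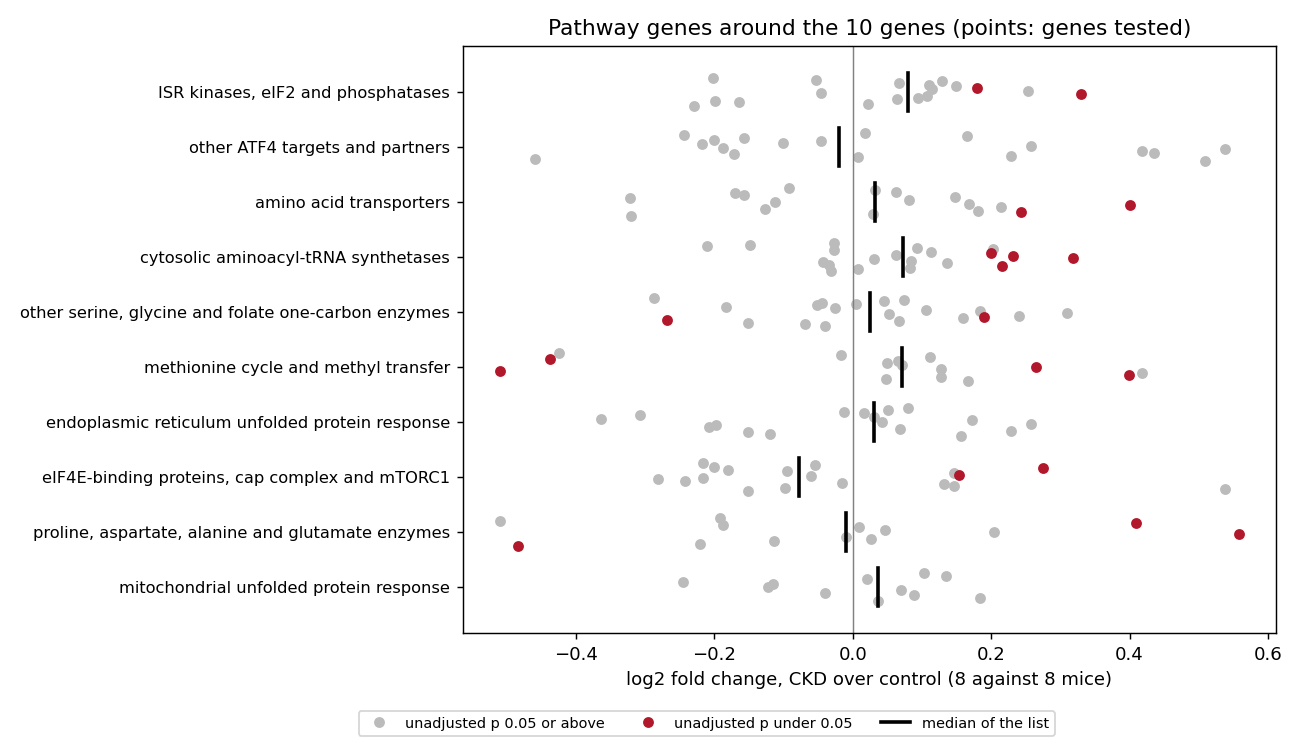
Log2 fold changes of CKD over control (8 against 8 mice) for the tested genes of 10 pathway lists, with grey points for an unadjusted p of 0.05 or above, red points for one under 0.05 and a black line for the list's median. The list medians lie between -0.08 and 0.08.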

How the data were processed

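Total RNA of mouse ventricles was sequenced (50 bp paired-end reads, HiSeq2500, RNA from an RNeasy Plus Mini kit, per the labels' protocols). The values deposited by the authors are whole-number read counts, without normalization, in 1 table of 16 libraries. The submitters' processing notes name mm10, STAR 2.6.1d, featureCounts (Subread 1.6.3), DESeq2 1.30.1, FastQC and MultiQC. Not given in the sources used here are the strand setting, the annotation release and the handling of reads with several alignments. Groups came from the treatment and sex labels, and replicate numbers only name a mouse, in the order of its record.

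Of 33399 gene identifiers 33367 matched GENCODE M21 (GRCm38), 32027 with the same version, which gave symbols and coordinates. Genes passed edgeR's filterByExpr (minimum count 10, total 15). Counts were scaled by TMM and tested with edgeR 4.0.16 in R 4.3.3 (glmQLFTest, two-sided, Benjamini-Hochberg over 16400 genes, threshold 0.05): CKD with sex as a covariate, the other comparisons as contrasts of 4 groups. The tested genes held at least 99.8% of every library's counts. The common biological coefficient of variation was 0.225, so for well covered genes the spread between mice sets the precision, while counting error adds to it for genes with few counts. Intervals are 95% intervals of the model. Correlations used log2 CPM (prior count 2), minus group means, with 100000 permutations, whose smallest possible p is 1e-05. The permutations ran freely over all 16 libraries and made no allowance for the removed means. Shared sequence was counted in words of 25 bases.

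The members and the gene lists were chosen with earlier results of these data known. All 10 genes are named, from each list up to 4 tested genes with the lowest p, and for each of the 10 the 3 protein-coding genes with the highest r. Of the genes this rule names, 1 is counted with its list but not reported here. Markers or list genes without a row in the table (Dmgdh, Fgb, Umod, Kap) were not analysed here. Brown adipocyte and atrial cardiomyocyte markers were also summed: 29.1 to 67.1 CPM and 154 to 866 CPM over all libraries. The fitting code was tested on simulated data. Alternatives were DESeq2 1.42.0, limma 3.58.1 voom with quality weights, RLE and upper-quartile scaling, no filter, 1 CPM in 8 libraries, removal of GC and length trends (lowess, span 0.3), the title code number, 1 surrogate variable (sva 3.50.0), no sex term, only the groups compared, and libraries left out.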

Additional observations from a re-analysis of the deposited data

Results flagged for a closer look

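Trib3 in female control mouse 2, at 1.49 CPM, lay far from the other female controls (2.80, 2.87 and 2.96 CPM). It was the 1 outlying value among 40 groups of 4 mice that were tested for one, and chance marks about 1 in 20 such groups. The same mouse had the lowest Shmt2 of the female controls, 15.5 CPM.

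The Asns estimates had opposite signs in the sexes. Relative to the control mean of its sex, every female CKD mouse was lower and every male CKD mouse higher. The male groups overlapped, though, and male CKD mice 1 and 2 (2.49 and 2.53 CPM) lay close to their control mean (2.42 CPM). That mean was lowered by male control mouse 1, at 1.28 CPM. The male log2 fold change was 0.33 (95% interval -0.21 to 0.88), and 0.10 without male control mouse 1. The CKD effect in females minus that in males was -0.90 log2 units. The interaction had a 95% interval of -1.67 to -0.12 and an adjusted p of 1.0 in edgeR's test. Without male CKD mouse 4 it was -0.77 (SE 0.35, 95% interval -1.52 to -0.02).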

How the results depend on the processing

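In CKD against control, the number of the 10 genes past adjusted p 0.05 was 0 and became 2 with DESeq2, limma-voom, no filter, the title code number as a factor and 1 surrogate variable, and 1 with GC and length trends removed and without male CKD mouse 4 and female control mouse 2. With single libraries left out it was 0 to 1: Gnmt passed without female CKD mouse 4 (adjusted p = 0.0258) or female control mouse 2 (0.0341), and Eif4ebp1 without male CKD mouse 3 (0.0481). Between the sexes in CKD the number was 0 and became 1 with limma-voom (Shmt2, adjusted p = 0.0453, where 9.48% of all genes were called). In males, in females, in their difference and between the sexes in controls it was 0 under every alternative run. The number of all tested genes called, 14, was 398 with DESeq2, 199 with limma-voom, 53 with no filter, 27 with GC and length trends removed, 234 with the title code number as a factor, 8 with code 6 alone, 75 with 1 surrogate variable, 22 without male CKD mouse 4 and female control mouse 2, and 6 to 43 with single libraries left out. The causes were not tested. Of the 10 genes only Psat1 changed sign, to -0.0042 without male control mouse 2 (range -0.0042 to 0.17 over libraries left out). Over 28 alternatives Gnmt lay between 0.83 and 1.01 and Eif4ebp1 between 0.44 and 0.58 on the log2 scale. No paired analysis was possible because the labels give no replicate numbers. Few reads, 11 to 52 in a library, limit Trib3, Phgdh, Asns and Mthfd2.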
